A study of Homo sapiens with 4 samples.

Results

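PSCA, LYPD3, HSD11B2, METTL7A, ADGRF1, LCN2 and SLPI are 7 genes of epithelial surface, secretion and steroid handling, picked by symbol from the 19577 genes counted in single MCF10A cells. They were chosen with their behaviour in these same cells already known: they fall along the epithelial-to-mesenchymal score, and most are lower in one of the experiments. Their values on those 2 axes are therefore a description without a test. MCF10A is an untransformed human mammary epithelial line, used here as an in vitro tumor model and carrying a histone H2B-GFP marker.

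Epithelial-to-mesenchymal transition (EMT) is the change in which epithelial cells loosen their junctions, lose markers such as E-cadherin and gain markers such as vimentin and fibronectin. Epithelium of glands and mucosae also makes apical surface proteins and secreted defence proteins, and the 7 genes cover several of these roles. PSCA and LYPD3 encode small surface proteins of the Ly6/uPAR family, held to the membrane by a lipid anchor. HSD11B2 encodes the enzyme that turns cortisol, the hydrocortisone of the medium, into inactive cortisone. METTL7A encodes a methyltransferase of the endoplasmic reticulum and lipid droplets, and ADGRF1 an adhesion G protein-coupled receptor. LCN2 encodes lipocalin, a secreted protein that binds bacterial siderophores, and SLPI a secreted inhibitor of leukocyte proteases.

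In every patch 10000 cells were seeded as a circle on a dish coated with fibronectin and grown for 6 days in phenol red-free DMEM/F12. The supplements were horse serum at 5%, insulin at 10 μg/ml and, in ng/ml, cholera toxin at 100, EGF at 20 and hydrocortisone at 500. Cells were then phototagged by illumination of photoactivatable dyes at 40 μM for 2 min per region, trypsinized, sorted alive and sequenced by SORT-seq, a plate method that counts transcripts by unique molecular identifiers (UMIs) at the 3′ end. The groups differ in how the patch was divided. Low-resolution patches were cut into 3 concentric rings, each 1000 to 1500 μm wide, and high-resolution patches into an outermost band of 250 μm, a second band of 250 μm and the inside. Each group held 2 plates of 384 wells. Which region a cell was sorted from is not used here, and because the regions were drawn differently, the mix of positions on a plate and the tagging itself cannot be told apart. The study describes the replicates of a group as biological replicates of patches, and the errors cover the spread between their plates.

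With the limits on features and mitochondrial share that the study states, 562 low-resolution and 584 high-resolution cells remained of 1536 wells, and without the mitochondrial limit 321 to 334 wells per plate. Both are fewer than the cells the study counts, so its set of cells was not rebuilt here, and the reason is not known. The cells kept had a median of 30520 to 41248 transcripts per cell and a median mitochondrial share of 28.4% to 31.2% by plate. By the names of the files, low-resolution replicate 1 ran on a flow cell of its own, and the other 3 plates shared another. Basal markers of mammary epithelium fitted the label in level for KRT5, at 1757 to 2315 CPM (summed counts scaled to a common library total), but TP63 stood at only 0.739 to 1.05 CPM. The plates of the experiments did not overlap in either marker class: the 6 basal genes summed to 2806 and 2813 CPM in the low-resolution plates against 3560 and 3656 CPM in the high-resolution plates, and the 7 luminal genes to 681 and 714 against 649 and 651 CPM. Within the basal list KRT5 made up most of the sum. KRT14, at 219 and 101 against 325 and 149 CPM, and TP63, at 0.910 and 0.892 against 1.05 and 0.739 CPM, overlapped between the experiments. Within the luminal list GATA3 was at 35.5 and 44.8 against 24.3 and 22.0 CPM and FOXA1 at 11.7 and 13.7 against 6.65 and 8.13 CPM. KRT19 was at 8.69 and 8.62 against 3.50 and 4.21 CPM. KRT8, the most abundant of the list, was at 510 and 523 against 499 and 458 CPM. The plates overlapped for KRT18, at 114 and 123 against 115 and 158 CPM, and for ESR1, at 1.52 and 0.495 against 0.350 and 0.739 CPM. PGR was at or near 0 in every plate. The summed markers of fibroblasts (6.73 to 12.9 CPM over 5 genes), leukocytes (18.8 to 51.1 CPM over 5 genes) and endothelium (18.9 to 23.4 CPM over 4 genes) were low in every plate. No marker of these lists was at 0 in all 4 plates. PTPRC was at 0.101 to 0.369 CPM, CDH5 at 0 to 0.148 CPM and COL1A2 at 0.0739 to 0.262 CPM, but 1 gene made up most of each sum. In fibroblasts it was COL1A1, at 6.04 to 8.86 CPM. In endothelium it was PECAM1, at up to 14.1 CPM in the low-resolution plates and at 19.0 and 21.1 CPM in the high-resolution plates. KDR of the endothelium list ran the other way, at 4.45 and 5.45 against 2.71 and 2.07 CPM. In the leukocyte list nearly all of the sum was CD14, which was higher in the low-resolution plates at 38.6 and 48.4 CPM than in the high-resolution plates at 26.0 and 17.9 CPM. The part of these genes in the results was not tested.

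The 7 genes lie on 7 different chromosomes. On GRCh38, LYPD3 is at chr19:43460787-43465660 on the minus strand. HSD11B2 is at chr16:67430652-67437553 on the plus strand and is overlapped by AC009061.1 on the opposite strand. METTL7A is at chr12:50923472-50932517 (plus), ADGRF1 at chr6:46997703-47042363 (minus), LCN2 at chr9:128149071-128153455 (plus) and SLPI at chr20:45252239-45254564 (minus). All 7 members are protein-coding, and no annotated gene overlaps any of them on its own strand.

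In the cells kept, LCN2 had the largest ratio between the experiments and LYPD3 differed least. The mean correlation of ADGRF1 with the EMT score was the most negative after that of HSD11B2. Promoters are shown for these 3 members. Each is the 250 bases before the transcription start in RefSeq (GRCh38.p14), 5′ to 3′ on the strand of the gene, with matches to the motifs searched in capitals. The window of LCN2 is chr9:128149203-128149452, that of ADGRF1 chr6:47042333-47042582 and that of LYPD3 chr19:43465609-43465858. The RefSeq starts differ from the starts of the gene spans given above. The LCN2 window lies inside its gene span, and the windows of ADGRF1 and LYPD3 overlap theirs in part.
LCN2: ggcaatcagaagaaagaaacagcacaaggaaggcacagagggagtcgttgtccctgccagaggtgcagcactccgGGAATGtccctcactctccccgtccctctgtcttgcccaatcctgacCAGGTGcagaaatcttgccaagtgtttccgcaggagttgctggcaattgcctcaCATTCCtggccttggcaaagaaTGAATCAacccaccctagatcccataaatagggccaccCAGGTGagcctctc
ADGRF1: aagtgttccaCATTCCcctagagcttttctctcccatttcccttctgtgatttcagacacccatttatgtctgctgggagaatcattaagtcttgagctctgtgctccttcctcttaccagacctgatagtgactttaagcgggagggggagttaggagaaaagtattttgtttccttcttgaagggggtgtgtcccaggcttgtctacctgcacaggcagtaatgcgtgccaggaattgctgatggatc
LYPD3: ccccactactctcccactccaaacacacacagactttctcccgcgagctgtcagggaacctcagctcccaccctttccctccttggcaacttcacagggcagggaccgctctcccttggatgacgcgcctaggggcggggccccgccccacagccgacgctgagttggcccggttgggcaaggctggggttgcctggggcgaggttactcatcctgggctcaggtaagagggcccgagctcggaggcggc

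RefSeq promoters could be matched for 4 members, METTL7A under its newer symbol TMT1A besides the 3 shown. PSCA, HSD11B2 and SLPI were not matched. Motifs were searched on both strands. AGAACA stood for the glucocorticoid receptor, TGANTCA for AP-1, CACCTG for an E-box, AACNGGTT for grainyhead-like factors, GGAATG for TEAD factors, TTGCGNAA for C/EBP factors and CCGGAAG for ETS factors, beside the letters TATAAA of a core promoter and an NF-kB site, which is named only. The LCN2 window held 2 matches to CACCTG, at bases 128 to 123 and 14 to 9 before the start. It held 2 matches to GGAATG, at bases 175 to 170 and 74 to 69, and 1 to TGANTCA, at bases 52 to 46. The ADGRF1 window held 1 match to GGAATG, at bases 240 to 235, whereas these letters were not found in the windows of LYPD3 and METTL7A. Among 35116 promoters cut to the same length, 17.5% held CACCTG, 11.9% held GGAATG and 6.57% held TGANTCA. No motif was matched in more than 2 of the 4 windows. The AGAACA letters, present in 12.4% of promoters, and the NF-kB site, present in 1.73%, were in none of the 4. Nor were the TATAAA, AACNGGTT, TTGCGNAA or CCGGAAG letters.

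Of the surface proteins, PSCA was the most abundant member. On GRCh38 it is at chr8:142670308-142682724 on the plus strand, where JRK overlaps it on the opposite strand. Its level was 1648 and 1790 CPM in the low-resolution plates and 752 and 658 CPM in the high-resolution plates. Both low-resolution plates lay above both high-resolution plates, with means of 1719 ± 100 and 705 ± 66.5 CPM (SD, n = 2 plates each), a ratio of 2.44. A minority of cells carried much of the message: the decile of cells with most PSCA held 46.5% to 56.7% of its transcripts in each plate. The median cell had 6.12 and 7.36 PSCA transcripts per 10000 in the low-resolution plates against 2.45 and 2.79 in the high-resolution plates, and the richest cell of a plate had 113 to 176.

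LYPD3, from the same protein family, was much scarcer and changed least. It stood at 62.3 and 76.5 CPM in the low-resolution plates and at 58.5 and 60.8 CPM in the high-resolution plates, a ratio of 1.16. The plates did not overlap, but the lowest low-resolution plate was only 1.02 times the highest high-resolution plate.

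HSD11B2 was like PSCA in its ratio between the experiments. It reached 648 and 728 CPM in the low-resolution plates and 278 and 251 CPM in the high-resolution plates, a ratio of 2.60. The cells of the high-resolution plates were more unequal in it: the top decile of cells held 66.9% and 59.4% of HSD11B2 transcripts there, against 39.5% and 40.8% in the low-resolution plates. The median cell carried 3.30 and 3.39 transcripts per 10000 at low resolution but 0.440 and 0.277 at high resolution, while the 90th percentile fell less, from 18.5 and 21.7 to 9.50 and 12.5.

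METTL7A was the most evenly spread member, with 26.7% to 33.3% of its transcripts in the top decile of cells. It was at 378 and 376 CPM in the low-resolution plates and 233 and 198 CPM in the high-resolution plates, a ratio of 1.75. ADGRF1 was at 145.9 and 135.9 CPM against 56.0 and 59.7 CPM, a ratio of 2.44. Neither gene had plates that overlapped between the groups.

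Of the secreted proteins, SLPI was second only to PSCA, at 772 and 957 CPM in the low-resolution plates and 423 and 371 CPM in the high-resolution plates, a ratio of 2.18. LCN2 was at 62.4 and 56.9 CPM against 25.0 and 17.5 CPM, and its ratio of 2.81 was the largest of the 7 in the cells kept. Without the mitochondrial limit its fitted log2 fold change, at -1.05, was smaller in size than that of HSD11B2, at -1.23. LCN2 was also the most concentrated, with 57.9% to 69.8% of its transcripts in the top decile of cells. The median high-resolution cell had none. In the plot of levels by plate all 7 genes show the low-resolution plates on top, beside 32.1% of the 12437 genes tested between the groups. LYPD3 is closest to no difference. The genes were chosen with this contrast known, so nothing is read from the count.

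**Figure D1:**
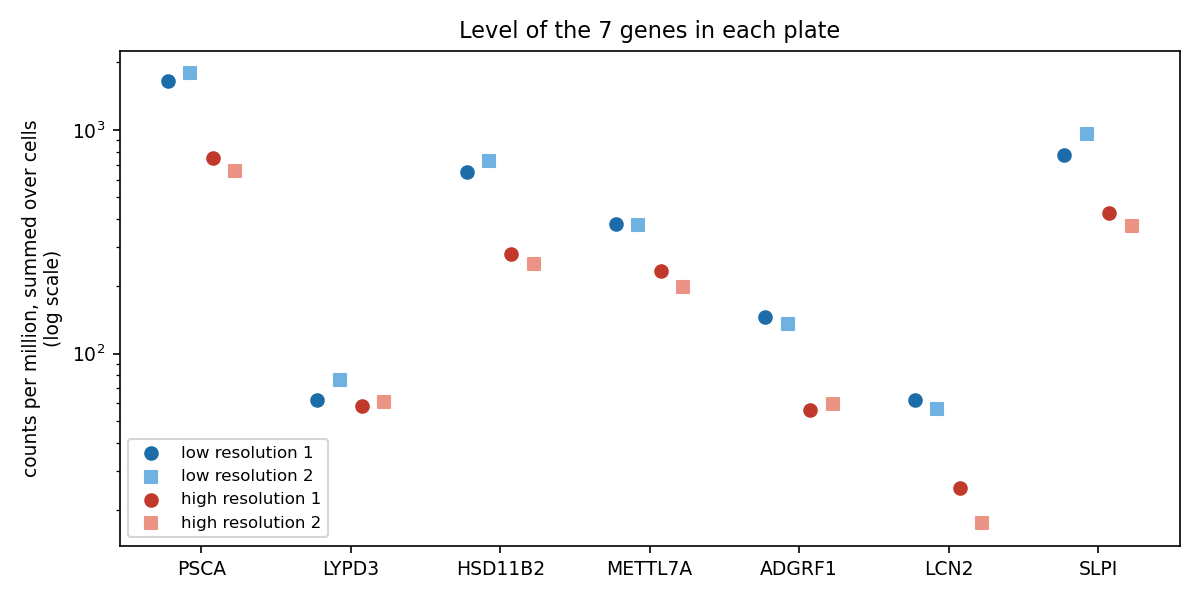
Level of each gene in CPM, summed over the cells of a plate (log scale, 1 point per plate, blue for low and red for high resolution). PSCA sits at 1648 and 1790 in the low-resolution plates against 752 and 658 in the high-resolution plates, while LYPD3 spans only 58.5 to 76.5 over all 4.

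Since 3′ UMI counts do not grow with gene length, the levels in CPM can be ordered. In the low-resolution plates the order was PSCA, SLPI, HSD11B2, METTL7A, ADGRF1, LYPD3 and LCN2, and of these neighbours LYPD3 and LCN2 overlapped in their plate values. At high resolution the order was PSCA, SLPI, HSD11B2, METTL7A, LYPD3, ADGRF1 and LCN2, where LYPD3 and ADGRF1 overlapped.

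A lower plate level could come from fewer cells with the gene or from fewer transcripts in each, so shares of cells were compared at equal depth, after each cell had been thinned to 10000 UMIs. This left 1130 of 1146 cells, since 16 cells were shallower. HSD11B2 was found in 75.6% and 76.5% of thinned low-resolution cells against 46.1% and 41.6% of high-resolution cells. For ADGRF1 the shares were 57.5% and 58.6% against 34.9% and 35.7%, and for LCN2 30.3% and 30.6% against 14.4% and 15.8%. PSCA was found in 93.0% and 95.9% against 85.2% and 81.8% of cells and SLPI in 95.1% and 98.5% against 82.0% and 85.2%, shares so near the top of the scale that they can show little of a difference in amount. METTL7A was at 91.3% and 88.4% against 78.2% and 74.2%, and LYPD3 at 40.8% and 46.6% against 36.3% and 37.8%.

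The exact binomial intervals cover counting error within a plate only. Cells are not replicates, so the intervals do not test the groups. Those of HSD11B2 did not overlap between low- and high-resolution plates (lower limits of 70.2% and 71.0% at low resolution, upper limits of 52.1% and 47.5% at high resolution). Those of LYPD3 did (35.0% to 46.7% in low-resolution replicate 1, 32.2% to 43.6% in high-resolution replicate 2). Unthinned, a UMI of PSCA was found in 97.3% to 100% of cells and of HSD11B2 in 86.9%, 90.8%, 69.4% and 72.4% of the cells of the 4 plates. No cell type that should lack these genes was sorted. The nearest to a background are the 50 to 63 wells per plate with under 2000 features, which can hold free RNA or damaged cells and had a median of 1398 to 4889 transcripts. A UMI of HSD11B2 was found in 60.8%, 63.5%, 26.0% and 34.5% of these wells in the 4 plates, and one of LCN2 in 3.45% to 9.52%. They held on average 0.983 to 2.86 PSCA transcripts per well, against 29.5 to 66.7 per cell, and 0.621 to 1.79 HSD11B2 transcripts, against 10.9 to 27.1 per cell. A cell with a single UMI therefore need not express the gene, no background was removed from the shares of cells given here, and the part of free RNA in them was not tested.

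Cells differed in how many of the 7 genes were detected in them. At equal depth the median cell had at least 1 UMI of 5 of the 7 in both low-resolution plates but 4 and 3 at high resolution. Cells with at least 6 of the 7 made up 38.7% and 40.3% of the low-resolution plates but 16.2% and 18.6% of the high-resolution plates. Cells with at most 2 made up 6.97% and 5.97% against 20.4% and 23.0%.

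**Figure D2:**
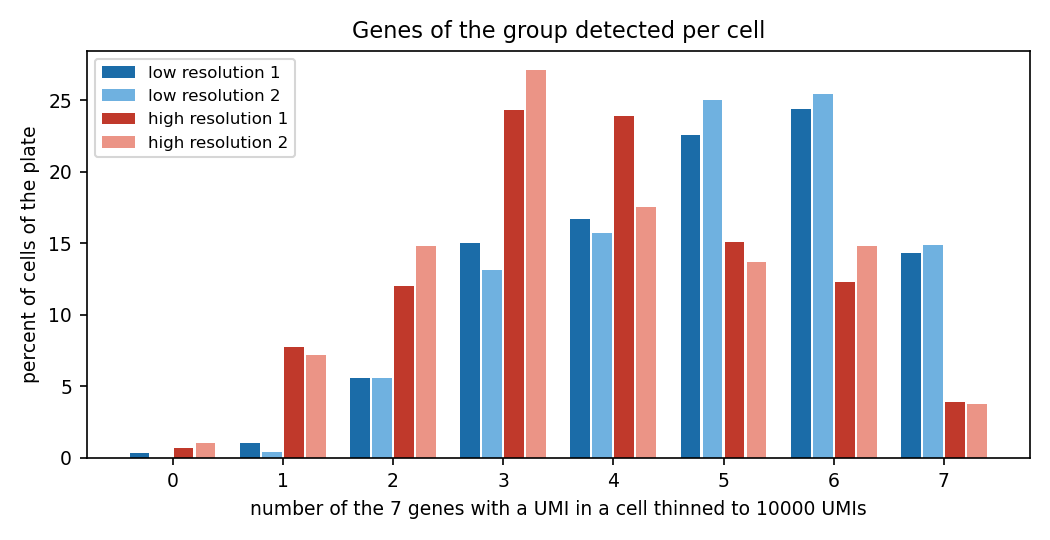
Percent of the cells of each plate (y axis) by the number of the 7 genes with at least 1 UMI after thinning to 10000 UMIs (x axis). Both low-resolution plates (blue) are highest at 6 genes, with 24.4% and 25.4% of cells, and both high-resolution plates (red) at 3 genes, with 24.3% and 27.1%.

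The genes rose and fell together from cell to cell. Over 21 pairs and 4 plates, all 84 Spearman correlations of log-normalized counts across the 271 to 293 cells of a plate were positive. The genes were picked with their shared fall along the EMT score known, so positive pairs can follow from that choice. Nothing is read from the count, and no share over other gene pairs is given beside it. The mean rho of the pairs was 0.479 and 0.488 at low resolution against 0.427 and 0.424 at high resolution. Cells of a plate share depth, mitochondrial share and cell cycle state, and so these values carry no p. At equal depth the mean over plates was 0.371 in place of 0.454, with 83 of 84 values positive.

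PSCA and SLPI were the tightest pair, with rho of 0.733, 0.753, 0.629 and 0.701 in the 4 plates. HSD11B2 with ADGRF1 followed at 0.652, 0.638, 0.597 and 0.668, and PSCA with ADGRF1 at 0.699, 0.687, 0.557 and 0.574. LYPD3 stood apart: its 6 pairs averaged 0.250 against 0.536 for the 15 pairs of the other genes. Its lowest pair was with METTL7A, at 0.114, 0.149, 0.0223 and 0.0884, so the METTL7A level of a cell says little about its LYPD3 level.

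Detection of at least 1 UMI showed the same link in thinned cells for HSD11B2 with ADGRF1 and with LCN2, but not for every pair. With a LYPD3 UMI, METTL7A was found in 90.6%, 92.0%, 75.7% and 74.5% of cells in the 4 plates. Without one, METTL7A was found in 91.8%, 85.3%, 79.6% and 74.0%. ADGRF1 was found in 71.4% and 72.2% of low-resolution cells with an HSD11B2 UMI but in 14.3% of those without in each plate. In the high-resolution plates ADGRF1 was found in 51.1% and 59.5% of cells with HSD11B2 and in 20.9% and 18.8% of those without. LCN2 was found in 38.7%, 38.0%, 26.0% and 28.1% of cells with HSD11B2 in the 4 plates and in 4.29%, 6.35%, 4.58% and 7.06% of those without.

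The pairs were less correlated among cells of similar EMT score. The EMT score of a cell is the mesenchymal minus the epithelial enrichment of fixed gene lists, of which 64 epithelial and 97 to 100 mesenchymal genes could be scored, and none of the 7 genes is in either list. Within tertiles of the score, the mean pair rho was 0.242, 0.234, 0.221 and 0.231 in the 4 plates, and 79 of 84 values were positive. The score still varies inside a tertile, and a narrower range itself can change rho. PSCA with SLPI had the highest value, at 0.593, 0.557, 0.472 and 0.555, and METTL7A with SLPI came next at 0.339, 0.448, 0.572 and 0.484. The pairs with LYPD3 averaged 0.0621 within tertiles, and LYPD3 with METTL7A was negative in all 4 plates, at -0.0880 to -0.0256.

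**Figure D3:**
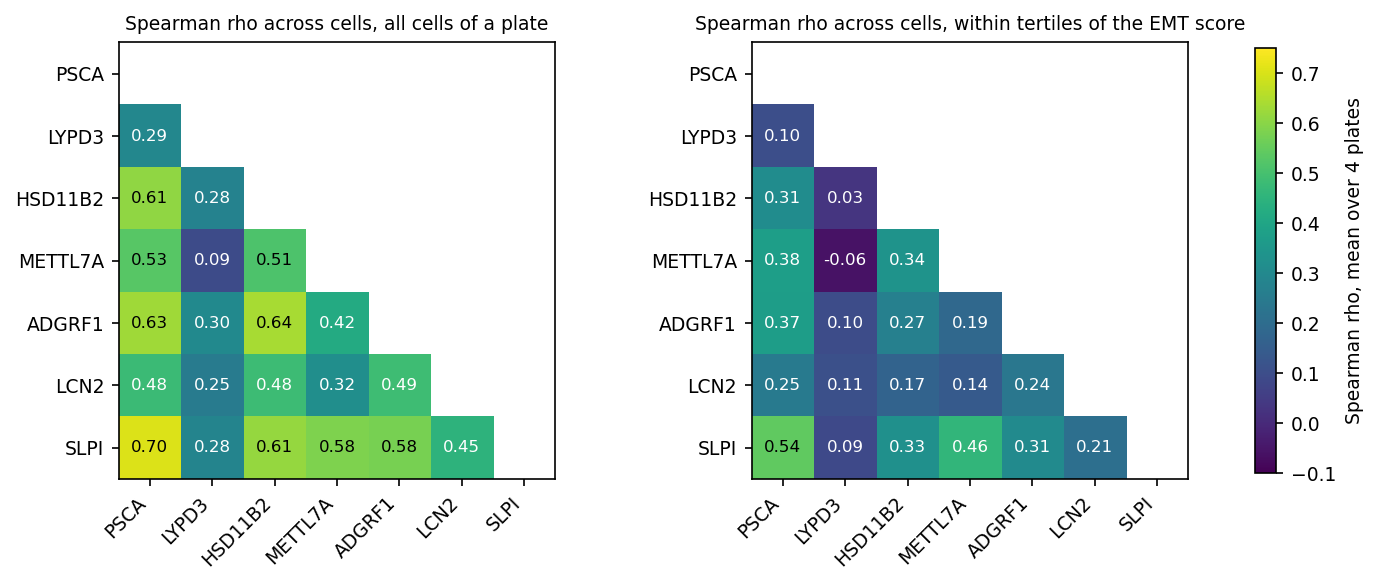
Spearman rho across cells for each of the 21 pairs, mean over 4 plates, over all cells of a plate (left) and within tertiles of the EMT score (right). PSCA with SLPI is highest in both, and the LYPD3 cells are the darkest, averaging 0.250 on the left and 0.0621 on the right.

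All 7 genes were lower in cells with a higher EMT score, in every plate. HSD11B2 had the most negative mean rho, -0.703 ± 0.0341, with -0.731, -0.712, -0.715 and -0.653 in the 4 plates, although ADGRF1 was lower in low-resolution replicate 2, at -0.732. ADGRF1 (mean of -0.660 ± 0.0707, SD over 4 plates), SLPI (-0.627 ± 0.0380) and PSCA (-0.596 ± 0.0960) followed. LCN2 was at -0.515 ± 0.0708, METTL7A at -0.393 ± 0.0525 and LYPD3 at -0.379 ± 0.0956. The means of LYPD3 and METTL7A differed by less than the spread over plates. The same holds for PSCA and SLPI and for SLPI and ADGRF1.

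A rho of -0.3 or lower in all 4 plates was reached by 6 of the 7, and LYPD3 missed it with -0.288 in high-resolution replicate 1. Among the 8032 genes that at least 20% of cells carried in each plate, all 7 included, 2.70% reached it. As the genes were picked from this relation, nothing is read from that count. Ordered from the most negative mean rho among the 8032 genes, HSD11B2 was at place 21, ADGRF1 at 36, SLPI at 50, PSCA at 61, LCN2 at 93, METTL7A at 195 and LYPD3 at 208.

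Both sides of the score took part. The correlation with the epithelial score alone ran from 0.267 to 0.763 over genes and plates, and that with the mesenchymal score alone from -0.608 to -0.135. METTL7A had a mean of 0.440 with the epithelial and -0.243 with the mesenchymal score, SLPI of 0.664 and -0.454, and LYPD3 of 0.369 and -0.333.

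Single EMT markers gave the same signs. All 4 markers named here are in the gene lists of the score, and the 7 genes were picked from their relation to it. The signs are therefore no separate support. CDH1, which encodes E-cadherin, had a positive rho with all 7 genes in all 4 plates, with means from 0.224 for METTL7A to 0.543 for HSD11B2. EPCAM, another epithelial adhesion protein, also had positive values throughout, from a mean of 0.150 for METTL7A to 0.517 for HSD11B2. The mesenchymal filament VIM had a negative rho with every one of the 7, from a mean of -0.217 for LYPD3 to -0.490 for HSD11B2. The matrix protein FN1 did too, from -0.243 for METTL7A to -0.556 for HSD11B2.

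Other properties of the cells moved with the genes as well, and their part in these relations was not tested. The mitochondrial share had a rho of 0.0311 to 0.521 with the 7 genes and of -0.475 to -0.299 with the EMT score. For the G2/M score rho was -0.519 to -0.0648 with the genes and 0.178 to 0.279 with the EMT score. Transcripts per cell had a rho of -0.410 to 0.157 with the genes, lowest for METTL7A. LYPD3 had the weakest link to the mitochondrial share (mean of 0.109) and to G2/M (mean of -0.124), and PSCA and SLPI had G2/M values of -0.402 and -0.421.

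In summed counts the steepest gene was again HSD11B2. From the bottom to the top tertile of cells by EMT score it went from 1138 to 66.3 CPM and from 1288 to 73.1 CPM in the low-resolution plates, and from 646 to 15.3 CPM and from 666 to 14.7 CPM in the high-resolution plates. These are 17.2 and 17.6 times at low resolution and 42.1 and 45.2 times at high resolution. The middle tertile stood at 668 and 734 CPM at low resolution and at 89.9 and 82.5 CPM at high resolution. Tertiles were cut within each plate and so cover different ranges of the score, and with 1 pair of limits for all plates the middle parts were closer, at 515 and 348 against 187 and 146 CPM, a ratio of 2.59. The bottom tertile thus held 65.0% and 65.2% of HSD11B2 transcripts at low resolution and 88.7% and 86.9% at high resolution. The top-tertile values of the high-resolution plates rest on 57 and 66 transcripts over 97 cells each, beside a mean of 0.740 and 0.621 HSD11B2 transcripts per well with under 2000 features in the same plates.

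PSCA fell from 3300 to 321 CPM and from 3491 to 353 CPM in the low-resolution plates and from 1429 to 219 CPM and from 1412 to 227 CPM in the high-resolution plates. Its slope was the steeper one at low resolution, 10.3 and 9.88 times against 6.51 and 6.21 times, the opposite order to HSD11B2, and neither difference in slope was tested. LCN2 was 11.4 to 13.1 times higher in the bottom tertile and ADGRF1 7.91 to 9.92 times, with little spread between plates. SLPI was 3.07 to 4.97 times higher, METTL7A 1.80 to 2.55 times and LYPD3 1.39 to 3.05 times. In CPM, the top tertile lay below the wells with under 2000 features of the same plate in all 4 plates for PSCA, HSD11B2 and ADGRF1, in 3 for LCN2 and SLPI, in 1 for METTL7A and in none for LYPD3. These ratios had no background removed, and the part of free RNA in them was not tested.

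On the log2 scale the mean ratio of top to bottom tertile was -4.78 ± 0.767 for HSD11B2, -3.63 ± 0.0928 for LCN2, -3.10 ± 0.146 for ADGRF1 and -3.00 ± 0.385 for PSCA (SD, n = 4 plates). It was -2.06 ± 0.314 for SLPI, -1.14 ± 0.499 for LYPD3 and -1.09 ± 0.210 for METTL7A, beside a median over all genes of 0.08. All 7 were past a mean ratio of -1 and lower in each plate, beside 6.98% of 11549 genes. Nothing is read from this count either.

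**Figure D4:**
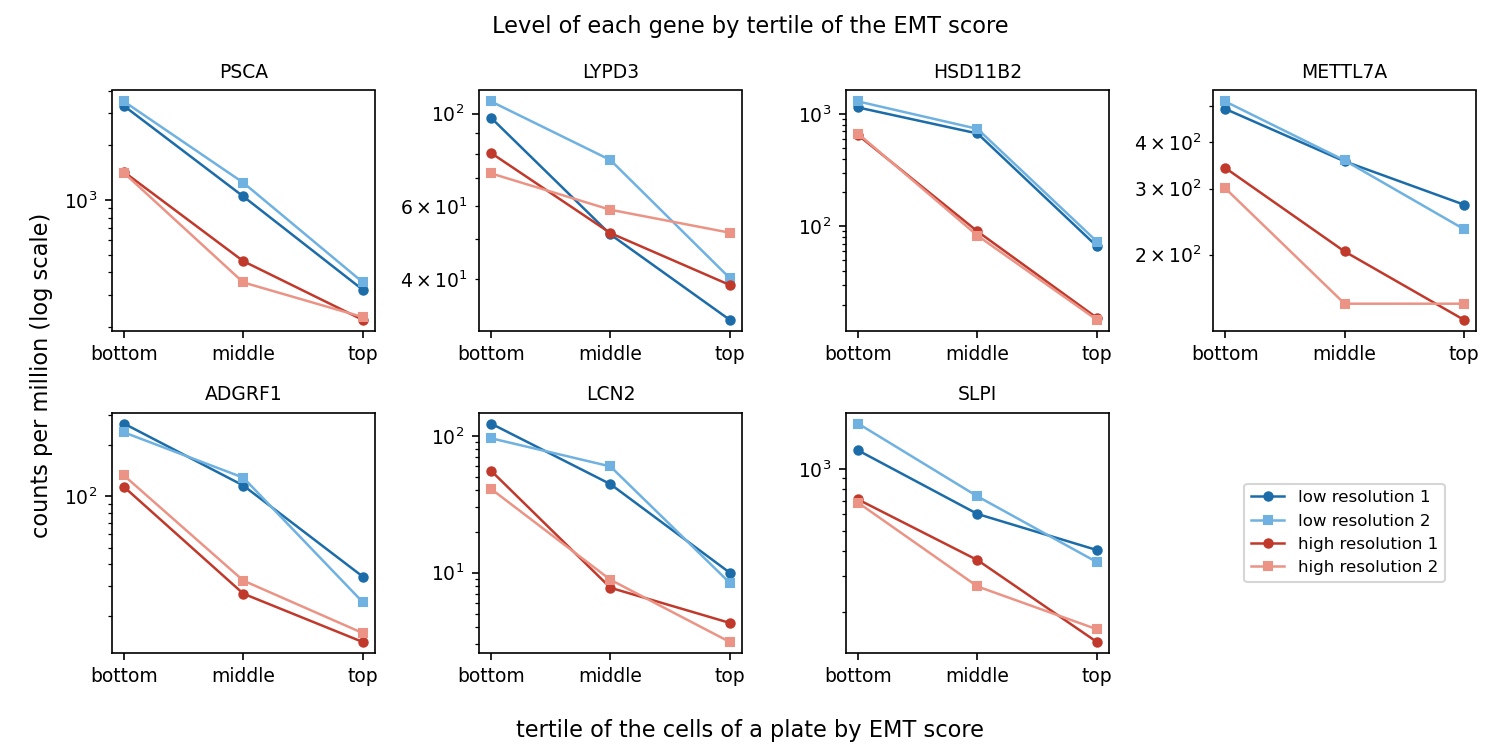
CPM of each gene (y axis, log scale with its own range in each panel) in the bottom, middle and top tertile of the cells of a plate by EMT score (x axis), 1 line per plate. Every line ends lower than it starts. For HSD11B2 the middle tertile holds 668 and 734 in the low-resolution plates (blue) against 89.9 and 82.5 in the high-resolution plates (red), whose tertiles, cut within each plate, cover other ranges of the score.

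Summed over the cells of a plate, 6 of the 7 genes passed the edgeR threshold for a lower level in the high-resolution plates, and LYPD3 did not. The direction and the call were among the values that chose the genes, so the count is given beside the 6.18% of 12437 genes called lower (6.26% were called higher, and so 12.4% in either direction) and nothing is read from it. The fitted log2 fold change of high- against low-resolution plates was -1.46 (SE 0.164) for LCN2, -1.35 (SE 0.119) for HSD11B2, -1.25 for PSCA (SE 0.117) and ADGRF1 (SE 0.112), -1.09 (SE 0.135) for SLPI, -0.77 (SE 0.115) for METTL7A and -0.19 (SE 0.136) for LYPD3. The median over all genes was -0.02. Both low-resolution plates lay above both high-resolution plates for 7 of 7 genes, beside 32.1% of all genes tested.

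Without low-resolution replicate 1, which leaves plates of a single flow cell, the values were -1.43 for LCN2, -1.46 for HSD11B2, -1.34 for PSCA, -1.23 for ADGRF1, -1.27 for SLPI, -0.80 for METTL7A and -0.36 for LYPD3. LYPD3 depended on 1 plate: without low-resolution replicate 2 its log2 fold change was 0.02. In these and in all bulk sums, fewer cells with a gene and less of it per cell cannot be told apart.

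The plates also differed in EMT score. When the cells of all 4 plates were scored in 1 fit and split into 3 parts by 1 pair of limits, the low-score part held 39.2% and 48.7% of low-resolution cells against 23.7% and 22.9% of high-resolution cells. The high-score part held 26.1% and 21.8% against 43.6% and 41.0%. This split, chosen after the data had been seen, allowed the genes to be compared among cells of similar score.

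Among cells of the low-score part, PSCA was at 3060 and 2972 CPM in the low-resolution plates and 1726 and 1786 CPM in the high-resolution plates, a ratio of 1.72. The ratio was 1.54 in the middle part and 1.21 in the high-score part, where the plates stood at 301 and 285 against 228 and 256 CPM. HSD11B2 ran the other way. Its ratio was 1.42 in the low-score part but 2.59 in the middle part and 2.70 in the high-score part, at 56.5 and 50.7 against 18.2 and 21.5 CPM.

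METTL7A had ratios of 1.24, 1.92 and 1.47 in the low, middle and high parts, ADGRF1 of 1.53, 2.08 and 1.65, SLPI of 1.54, 1.63 and 1.88, and LCN2 of 1.90, 2.03 and 1.45. Both low-resolution plates lay above both high-resolution plates in every part for PSCA, HSD11B2, METTL7A, ADGRF1 and SLPI, beside 7.57% of the 12437 genes. LCN2 plates overlapped in the high-score part, where each rests on 11 to 24 transcripts. For LYPD3 the low-resolution plates were higher in the low-score part, at 93.4 and 95.7 against 84.6 and 82.1 CPM, and lower in the high-score part, at 33.8 and 38.6 against 41.3 and 49.0 CPM, beside 25.8% of genes that were higher without overlap in the low-score part and 21.8% lower in the high-score part.

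With the 3 parts given equal weight in every plate, the ratio of low- to high-resolution level was 1.63 for PSCA, 1.64 for HSD11B2, 1.45 for METTL7A, 1.65 for ADGRF1, 1.90 for LCN2 and 1.61 for SLPI. Both low-resolution plates still lay above both high-resolution plates for these 6 genes, beside 30.7% of all genes tested, whereas LYPD3 was at 0.996 with overlapping plates. As the same contrast chose the genes, nothing is read from these counts. The unweighted ratios had been 1.75 to 2.81 for the 6 genes and 1.16 for LYPD3. The parts are broad, so cells within a part can still differ in score between plates.

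**Figure D5:**
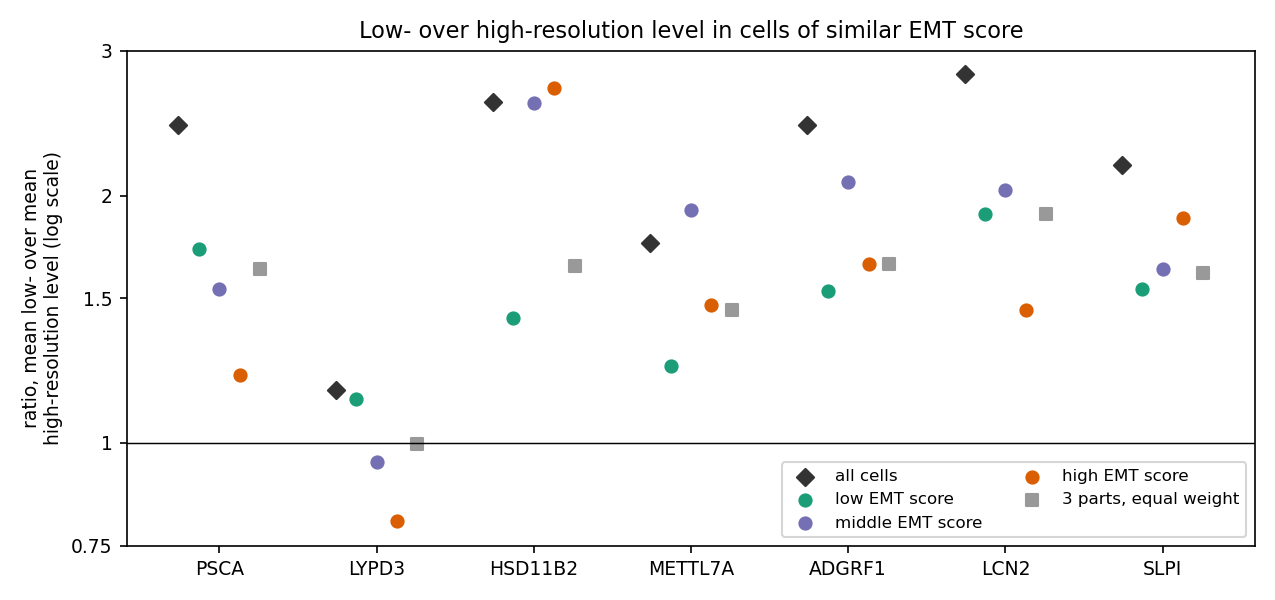
Ratio of the mean low- to the mean high-resolution level of each gene (y axis, log scale, line at 1) for all cells, for cells of the low, middle and high part of the joint EMT score, and for the 3 parts at equal weight. At equal weight 6 genes lie between 1.45 and 1.90 and LYPD3 at 0.996.

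The genes whose level across cells was most like that of each member were largely the same few, all outside the 2 EMT lists. FXYD3, a regulator of the sodium pump, was among the 3 nearest of 8025 other genes for 6 of the 7 members, with a mean rho over 4 plates of 0.751 for HSD11B2, 0.685 for PSCA, 0.682 for SLPI, 0.680 for ADGRF1, 0.560 for LCN2 and 0.379 for LYPD3. PSCA was next nearest to LGALS3 (0.680), a galactose-binding lectin, and PERP (0.663), a component of desmosomes. HSD11B2 and ADGRF1 shared AZGP1, a secreted glycoprotein (0.713 and 0.658). LCN2 was next nearest to KLK5, a secreted protease (0.539).

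METTL7A was the exception. Its nearest genes were CTSD, a lysosomal protease (0.602), ACSL1, which activates fatty acids (0.568), and TPD52L1 (0.564). CTSD was also first for SLPI (0.715), ahead of FXYD3 and LGALS3 (0.648). LYPD3 was nearest to CLDN4, a tight junction protein (0.406), then FXYD3 and PERP (0.377). Among all genes, a fellow member ranked as high as first for PSCA, namely SLPI at 0.704, but only at place 37 for LYPD3, namely ADGRF1 at 0.302.

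Genes related to the members by family or function were read from the same edgeR fit, with Benjamini-Hochberg adjustment over 12437 genes. The lists were written with earlier results of these data known, so each is described beside the 12.4% called and the median log2 fold change of -0.02 over all genes. In the Ly6/uPAR family, 1 of 7 tested genes rose in the high-resolution plates and none fell, with a median of -0.04. The gene that rose was PLAUR, the urokinase receptor, at 49.8 and 65.7 against 69.6 and 117 CPM (log2 0.72, adjusted p = 0.0418). That call was lost in 6 of 13 other settings. LY6D, LY6E and CD59 had log2 values of -0.04, -0.24 and -0.15 against -1.25 for PSCA, and did not pass.

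Of the genes of glucocorticoid handling and response, 5 of 15 fell and none rose, with a median of -0.22. NR3C2, the mineralocorticoid receptor that HSD11B2 shields from cortisol in kidney, was at 5.76 and 8.03 CPM in the low-resolution plates and 1.31 and 2.59 CPM in the high-resolution plates, 3.39-fold lower (adjusted p = 0.00602). ZBTB16, a hormone-induced zinc finger factor, fell 1.91-fold from 20.4 and 18.2 to 10.2 and 9.53 CPM (adjusted p = 0.00493). TSC22D3, the glucocorticoid-induced leucine zipper, fell 1.88-fold from 72.4 and 74.0 to 35.3 and 40.9 CPM (adjusted p = 0.000935). SCNN1B, a subunit of the epithelial sodium channel, fell 1.61-fold (adjusted p = 0.00963), a call lost without low-resolution replicate 2. The remaining gene that fell was CEBPD, 1.48-fold (adjusted p = 0.0173), a call lost in thinned cells, without low-resolution replicate 2 and without high-resolution replicate 1. The glucocorticoid receptor NR3C1 and its target FKBP5 did not pass, at log2 -0.29 and -0.22.

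Among adhesion G protein-coupled receptors besides ADGRF1, 2 of 11 fell and none rose (median of -0.21). ADGRG1 fell 1.80-fold, from 60.4 and 72.9 to 39.6 and 33.0 CPM (adjusted p = 0.00387), and CELSR2, a planar polarity cadherin, 1.83-fold (adjusted p = 0.00837), a call lost in thinned cells. ADGRF4, from the same subfamily as ADGRF1, was at 5.26 and 5.35 against 2.45 and 3.40 CPM and did not pass (adjusted p = 0.0755). Of 10 lipid droplet genes only the lipase PNPLA2 fell, by 1.32-fold (adjusted p = 0.0380), and this call was lost in 6 of 13 other settings. METTL7B, the paralog of METTL7A, was near the limit of detection at 1.31 to 2.02 CPM.

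Secreted antimicrobial and antiprotease genes, the class of LCN2 and SLPI, had the lowest median of the lists, at -0.73, and 6 of 11 fell while 1 rose (4 fell without low-resolution replicate 2). S100A8, a calprotectin subunit, fell 2.91-fold from 17.3 and 30.4 to 7.35 and 8.72 CPM (adjusted p = 0.00293). WFDC2, a relative of SLPI, fell 2.47-fold from 302 and 369 to 144 and 123 CPM (adjusted p = 0.000236). RARRES1 fell 2.45-fold from 198 and 168 to 86.1 and 60.1 CPM (adjusted p = 0.000426), and complement C3 1.80-fold from 241 CPM in each low-resolution plate (adjusted p = 0.000627). The riser was the protease CTSC, at 42.8 and 39.2 against 52.1 and 62.3 CPM (adjusted p = 0.0228), a call lost without either low-resolution plate or without high-resolution replicate 2. PI3, the other well-known antiprotease of the WFDC group, differed more between replicates than between groups, at 6.87 and 14.6 against 8.49 and 20.0 CPM.

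Of the known binding partners of the members, 5 could be tested. AGR2, a secreted ligand of LYPD3 that is also in the epithelial list of the EMT score, fell 3.78-fold from 18.8 and 16.8 to 6.21 and 3.10 CPM (adjusted p = 0.000910), while LYPD3 itself was at 62.3 and 76.5 against 58.5 and 60.8 CPM. ITGB4, an integrin of hemidesmosomes, rose 1.45-fold from 107 and 124 to 163 CPM in each plate (adjusted p = 0.0150), a call lost without low-resolution replicate 1. ANXA2 rose 1.32-fold from 2353 and 2337 to 3056 and 2978 CPM (adjusted p = 0.0260), and lost this call when any 1 plate was left out. The scramblases PLSCR1 and PLSCR4, partners of SLPI, did not pass.

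LCN2 is a known NF-kB target. Of 17 other NF-kB targets tested, 5 rose in the high-resolution plates and none fell, with a median of 0.37. IL6 was at 0.708 and 0.595 against 4.55 and 4.43 CPM (log2 2.80, adjusted p = 0.000789), CXCL8 at 16.8 and 25.3 against 63.3 and 87.5 CPM (log2 1.87, adjusted p = 0.000236) and IL1A at 19.0 and 24.6 against 66.4 and 46.7 CPM (log2 1.40, adjusted p = 0.000863). CCL20 rose 2.06-fold (adjusted p = 0.00751), a call that DESeq2 did not make, and DESeq2 gave no adjusted p for IL6. The remaining riser was TNFAIP3, 1.60-fold (adjusted p = 0.0160), a call lost without low-resolution replicate 2.

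Of the YAP/TAZ targets, genes that respond to cell spreading and density, 5 of 14 rose and 1 fell, with a median of 0.31. AXL, a receptor kinase, rose from 41.8 and 37.5 to 90.8 and 95.4 CPM (log2 1.27, adjusted p = 0.000125). CYR61 rose 2.30-fold (adjusted p = 0.00131), NT5E 2.23-fold (adjusted p = 0.000125) and CTGF 2.15-fold (adjusted p = 0.00117), and the remaining riser was CRIM1, 1.34-fold (adjusted p = 0.0293), which lost its call when any 1 plate was left out. WWC1, an upstream part of the Hippo pathway, fell 1.61-fold (adjusted p = 0.00784), a call lost in thinned cells.

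Squamous differentiation genes split. Of 13 tested, 5 fell and 2 rose, with a median of -0.53. KRT4 fell 3.69-fold from 24.4 and 14.7 to 7.26 and 3.18 CPM (adjusted p = 0.00312), SPRR3 3.13-fold from 47.1 and 27.2 to 15.1 and 8.05 CPM (adjusted p = 0.00283) and KRT10 1.88-fold (adjusted p = 0.00312). IVL fell 1.65-fold (adjusted p = 0.0487), a call lost in 7 of 13 other settings, and CNFN 1.45-fold (adjusted p = 0.0486), a call lost in 6 of the 13. KRT6B rose 2.05-fold from 38.9 and 42.6 to 77.8 and 85.2 CPM (adjusted p = 0.000448) and KRT6A 1.54-fold (adjusted p = 0.00299), both keratins of activated epithelium.

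Of the EMT markers, CDH1 fell from 74.2 and 71.1 to 44.8 and 43.7 CPM (log2 -0.68, adjusted p = 0.00321) and EPCAM was at 102 and 110 against 95.7 and 96.5 CPM (log2 -0.11, adjusted p = 0.566). VIM rose from 84.1 and 68.8 to 126 and 159 CPM (log2 0.94, adjusted p = 0.00117) and FN1 from 523 and 422 to 797 and 771 CPM (log2 0.77, adjusted p = 0.00127). The log2 size of each was below that of PSCA, HSD11B2, ADGRF1, LCN2 and SLPI. Those genes were chosen with this contrast known, so nothing is read from this order. All of these tests rest on 2 plates per group.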

How the data were processed

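Single MCF10A cells of low- and high-resolution patches were sequenced by SORT-seq, 1 plate of 384 wells per replicate. The values that the authors deposited are expected counts per gene and well: numbers of different UMIs, raised slightly for those that coincide among 4096 sequences, and not scaled. The submitters' processing notes name STAR 2.7.3a, Seurat 4 and hg38, and plates held 11709628 to 14992348 transcripts. Spike-in rows (0.833% to 1.38%) stayed out of library sizes. As in the study, a cell needed 2000 to 9000 features and a mitochondrial share under 40%, and doublets were not called beyond that maximum.

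Counts were log-normalized to 10000 per cell. The EMT score is GSVA (own code, Gaussian kernel, fitted to each experiment apart) of the study's lists, mesenchymal minus epithelial. Sums per plate were rounded and tested with edgeR 4.0.16 (R 4.3.3; quasi-likelihood, TMM, filterByExpr, Benjamini-Hochberg, threshold 0.05), which passed all 7 genes, with DESeq2 1.42.0 as an alternative. Thinning drew 10000 whole UMIs per cell. Intervals are exact binomial at 95%. Positions are from GENCODE 29. The same 384 well barcodes serve every plate, so shared barcodes carry no information. The highest correlation between wells of different plates was 0.916 against 0.915 within a plate.

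The members and lists were chosen with earlier results of these data known. Named besides the 7 members were the 3 nearest genes of each, out of genes detected in 20% or more of the cells in all plates, at most 4 called genes per list and direction by size, and CDH1, EPCAM, VIM and FN1. CEBPD, TNFAIP3, CRIM1, CNFN and the genes named as not passing were chosen after their values were seen. Of the nearest genes, 1 is not reported here.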

Additional observations from a re-analysis of the deposited data

Results flagged for a closer look

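LYPD3 differed between the experiments in opposite directions at the ends of the EMT score. Among cells of the low-score part its log2 difference of high- minus low-resolution plates was -0.18, with both high-resolution plates lower. Among cells of the high-score part it was 0.31, with both high-resolution plates higher. Of all genes tested, 25.8% were lower without overlap in the low-score part and 21.8% higher without overlap in the high-score part. LYPD3 was flagged by a search for such a change of direction among the members. The difference between the parts was not tested, the parts were drawn after the data had been seen, and the high-score values rest on 83 to 266 LYPD3 transcripts per plate.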

How the results depend on the processing

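The call of 6 of the 7 genes as lower in high-resolution plates was the same in all 13 other settings of the test, while LYPD3 was called in none and went to 0.02 without low-resolution replicate 2 (0.02 to -0.36 when 1 plate was left out). With a plate left out, the lone plate of its group is assumed to vary like the plates of the other group, so those 4 settings bear on the size and direction of a difference more than on its p-value. Of 12437 genes 1547 were called, against 988 in cells thinned to 10000 UMIs, where 10436 genes could be tested, 2146 of 19290 without the filter on low counts, and 982 to 1172 with 1 plate left out. DESeq2 called 1069. The lowest of these counts, 982 and 987, were those without low-resolution replicate 1 and without high-resolution replicate 2. With library totals only, 558 genes were called higher and 750 lower, against 778 and 769. Same-numbered plates share only a number (correlation of their deviations of -0.0238), and with that number as a replicate block 2023 genes were called. At equal parts of the EMT score, added after the data were seen, the log2 differences were -0.70 for PSCA, 0.01 for LYPD3, -0.71 for HSD11B2, -0.54 for METTL7A, -0.72 for ADGRF1, -0.93 for LCN2 and -0.69 for SLPI. Thinning moved the mean rho with the EMT score to -0.275 for LYPD3, -0.330 for METTL7A, -0.584 for ADGRF1, -0.406 for LCN2 and -0.583 for SLPI, and the mean pair rho to 0.371, against 0.232 within EMT tertiles. Between the top and bottom quintile of cells the log2 ratios were -3.42 for PSCA, -3.43 for ADGRF1, -4.05 for LCN2 and -2.54 for SLPI, and LCN2 was at -3.84 without the mitochondrial limit and at -3.76 with joint score limits. Thinning lowered the mean share of cells over plates to 89.0% for PSCA, 40.4% for LYPD3, 59.9% for HSD11B2, 83.0% for METTL7A, 46.7% for ADGRF1, 22.8% for LCN2 and 90.2% for SLPI. Of 532 values for the called genes of the lists and the 4 EMT markers, 55 lost a call and none changed direction, and genes of the lists that were not called at first are not among them. Why these values moved was not tested. Depth limits the high-score part, where the LCN2 level of a plate rests on 11 to 24 transcripts.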
